A study of Mus musculus with 18 samples.

Results

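The genes described here are 10 transcripts that mark astroglia and late radial glia in mouse cortex, namely *Gfap*, *Fabp7*, *Slc1a2*, *Slc1a3*, *Aldoc*, *Mfge8*, *Rlbp1*, *Hopx*, *Tnc* and *Sparcl1*. They were taken by symbol, through their Ensembl identifiers, from 55153 genes of the RNA-seq table and 54838 genes of the Ribo-seq table. All 10 had a count in each of the 18 libraries and passed the filter on low counts in every comparison. The members were chosen by their RNA-seq and Ribo-seq fold changes against Ctrl as well as by their known expression, with earlier results of these libraries in view, so the calls below describe its genes and are no independent evidence of a direction. RNA-seq, and Ribo-seq, which sequences the RNA fragments that ribosomes protect, were performed on cerebral cortices at E15.5. The 3 groups were wild type mice (Ctrl), mice labelled Fto(f/f, Emx1-cre) (*F*-cKO) and mice labelled Mettl3(f/f, Emx1-cre) (*M*-cKO), all labelled as strain C57BL/6, with 3 libraries per group in each assay. Fto removes methyl groups from adenosines in RNA, and Mettl3 writes them. *Emx1-Cre* recombines in the dorsal telencephalic lineage, so cells that come to the cortex from elsewhere (interneurons, endothelium, microglia) keep intact alleles. Per the study's methods the floxed lines had a mixed C57/BL6 and 129 background. The study's text calls control mice wild-type littermates where it compares pups, and whether the Ctrl embryos carried *Cre* or floxed alleles, or how many embryos entered a library, is not given in the sources used here. For Ribo-seq its methods name 3 cortical samples "from 1 L", an abbreviation that is not explained, so whether libraries shared a litter is not known. *P* values therefore measure the spread between these libraries.

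Radial glia are the stem cells of the developing cortex. They first give rise to neurons, directly or through intermediate progenitors, and around birth they turn to making astrocytes. Many genes known as astrocyte markers (glutamate transporters, the lipid carrier *Fabp7*, matrix proteins) are already transcribed in radial glia during neurogenesis, while *Gfap*, the intermediate filament of mature astrocytes, is normally low in dorsal cortex before birth.

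The members are protein-coding genes on 7 chromosomes of assembly GRCm38.p6. *Gfap* (ENSMUSG00000020932) is at chr11:102887336-102897200, *Aldoc* (ENSMUSG00000017390) at chr11:78323073-78327781, and *Fabp7* (ENSMUSG00000019874) at chr10:57784923-57788450. *Slc1a2* (ENSMUSG00000005089) is at chr2:102658239-102790784 and *Slc1a3* (ENSMUSG00000005360) at chr15:8634124-8710807. *Mfge8* (ENSMUSG00000030605) and *Rlbp1* (ENSMUSG00000039194) lie on the same chromosome, at chr7:79133768-79149060 and chr7:79374865-79392250. *Hopx* (ENSMUSG00000059325) is at chr5:77086986-77115123, *Sparcl1* (ENSMUSG00000029309) at chr5:104079108-104114088, and *Tnc* (ENSMUSG00000028364) at chr4:63959785-64047015. Noncoding RNAs are annotated over *Slc1a2* (LOC115489466 and Gm13872), *Hopx* (Hopxos and a small nucleolar RNA), *Tnc* (8030451A03Rik) and *Sparcl1* (LOC330143). Whether the counting used strand is not given in the sources used here, so reads of these 4 members and of the overlapping RNAs cannot be told apart.

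Most members were lower together in RNA-seq, and the 250 bases before their annotated starts were searched on both strands for short sequences read by factors known from gliogenesis. The RefSeq table (GRCm38.p6) holds 12 promoters for 9 of the 10 members and 32851 promoters in all. The sequence TGGGAA of RBPJ, the Notch effector, was found in 7 of the 12 member promoters, from 5 genes, and in 21.6% of all promoters. The STAT sequence TTCNNNGAA was found in 2 of the 12 and in 7.02% of all promoters. The nuclear factor I site TTGGCA was found in 2 and in 12.3%, the longer nuclear factor I palindrome in 0 and in 0.0365%, and the SOX sequence ACAAAG in 1 and in 16.5%. The promoters of *Slc1a2* and *Hopx* held no match to any of them. A match is only a run of letters in this window, and binding was not measured. Promoters are printed 5′ to 3′ for the genes on which the results turn. *Gfap* (minus strand, chr11:102897201-102897450) had the largest fall, *Fabp7* (plus strand, chr10:57784673-57784922) the highest level, and *Tnc* (minus strand, chr4:64046937-64047186, the start with the most matches) the smallest adjusted *P* of the members in *M*-cKO RNA-seq. *Mfge8* (minus strand, chr7:79149061-79149310) moved in opposite directions in the 2 assays of *M*-cKO. Capitals mark the matches, which are all RBPJ sequences except the last in *Tnc*, a nuclear factor I site.
Gfap: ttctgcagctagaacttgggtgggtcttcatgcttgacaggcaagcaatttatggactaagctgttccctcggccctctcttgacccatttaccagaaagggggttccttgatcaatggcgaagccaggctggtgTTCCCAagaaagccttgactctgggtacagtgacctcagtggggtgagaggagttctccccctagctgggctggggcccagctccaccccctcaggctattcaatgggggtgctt
Fabp7: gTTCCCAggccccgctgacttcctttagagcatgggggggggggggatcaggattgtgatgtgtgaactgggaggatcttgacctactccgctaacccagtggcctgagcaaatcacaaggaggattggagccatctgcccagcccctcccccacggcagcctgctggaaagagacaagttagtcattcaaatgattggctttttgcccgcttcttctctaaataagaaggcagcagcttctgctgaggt
Tnc: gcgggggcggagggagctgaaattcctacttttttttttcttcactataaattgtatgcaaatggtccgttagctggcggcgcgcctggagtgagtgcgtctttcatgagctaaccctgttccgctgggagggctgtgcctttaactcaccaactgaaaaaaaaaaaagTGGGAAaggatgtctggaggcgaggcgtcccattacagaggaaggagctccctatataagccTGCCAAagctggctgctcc
Mfge8: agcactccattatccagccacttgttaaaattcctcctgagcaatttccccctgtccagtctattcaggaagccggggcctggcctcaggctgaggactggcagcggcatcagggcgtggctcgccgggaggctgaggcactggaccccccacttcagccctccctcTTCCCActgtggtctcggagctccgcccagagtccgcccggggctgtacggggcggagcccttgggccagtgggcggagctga

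RNA-seq libraries held 18504094 to 22592406 counted reads and Ribo-seq libraries 10973699 to 35853227 counted fragments. *Fto* was lower in every *F*-cKO library, with 42.5, 99.2 and 31.8 CPM (counts scaled to library size, after TMM normalization) against 143, 146 and 111 in Ctrl RNA-seq, and 40.4, 25.6 and 43.1 against 276, 234 and 188 in Ribo-seq. The second *F*-cKO RNA-seq library was at 0.745 of the Ctrl mean. *Mettl3* was higher in *M*-cKO RNA-seq, with 44.2, 40.2 and 42.5 CPM against 30.0, 32.8 and 26.1 in Ctrl, and lower in Ribo-seq, with 28.3, 26.6 and 26.8 against 38.1, 38.3 and 41.5. The deletion removes a part of *Mettl3*, so counts over the whole gene do not fully check it. Summed CPM of 11 cortical neuron markers was 7913.5 to 8998.1 over the 9 RNA-seq libraries. In Ribo-seq it was 12255.7 to 13663.5 in Ctrl and 10881.7 to 12280.1 in *M*-cKO. The *F*-cKO Ribo-seq libraries had 11732.4, 7440.1 and 13884.8, so the second was the lowest of all.

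In Ribo-seq, *F*-cKO replicate 2, which had the fewest fragments, stood apart in the 5 members whose proteins are in the membrane or secreted (*Slc1a2*, *Slc1a3*, *Mfge8*, *Tnc*, *Sparcl1*). They were at 5.18 to 8.67 times the Ctrl mean in that library, compared with 0.509 to 0.698 times in replicate 1 and 0.977 to 1.27 times in replicate 3. The 5 members with intracellular proteins were at 0.224 to 1.1 times the Ctrl mean in the same library. Summed CPM of 8 endothelial markers, all of them membrane proteins, was 335 there and 15.2 to 32.6 in the other 8 Ribo-seq libraries. Every fold change of these 5 members in *F*-cKO Ribo-seq against Ctrl rests on that library and is given below with and without it. The intracellular members moved less when it was left out. Their log2 fold changes went from -0.82 to -0.44 for *Gfap*, from -0.26 to -0.07 for *Fabp7* and from -0.25 to -0.48 for *Hopx*. *Rlbp1* went from -0.17 to -0.04 and *Aldoc* from -0.02 to 0.10.

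**Figure D1:**
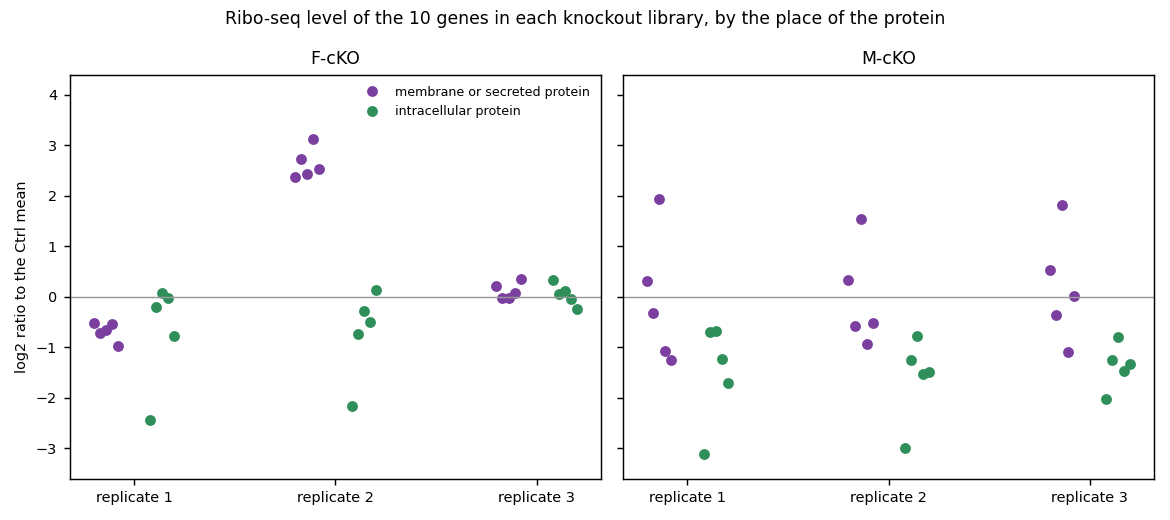
Ribo-seq level of each of the 10 genes in each knockout library, as the log2 ratio to the mean of the 3 Ctrl libraries (y axis), with libraries on the x axis and a point per gene. In *F*-cKO replicate 2 the 5 genes of membrane or secreted proteins sit at 5.18 to 8.67 times the Ctrl mean, while the 5 of intracellular proteins sit at 0.224 to 1.1 times.

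In Ctrl cortex, *Fabp7* was by far the most abundant member per length, and *Gfap* and *Slc1a2* were the least abundant. Mean RNA-seq FPKM (fragments scaled by transcript length and depth) was 594 ± 68.4 (SD, n = 3) for *Fabp7*, 54.5 ± 7.12 for *Sparcl1*, 44.3 ± 3.25 for *Aldoc*, 35.3 ± 0.339 for *Rlbp1*, 32.6 ± 4.2 for *Tnc* and 22.8 ± 0.715 for *Mfge8*. It was 19.5 ± 1.47 for *Slc1a3*, 12.2 ± 0.156 for *Hopx*, 5.78 ± 0.56 for *Slc1a2* and 3.25 ± 1.05 for *Gfap*. Ctrl libraries of neighbours in this order overlapped for *Sparcl1* with *Aldoc* and for *Rlbp1* with *Tnc*, and lay apart for all other neighbours.

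The order of the members differed on the Ribo-seq RPKM scale, where *Fabp7* (1606.3 ± 98.6), *Aldoc* (118 ± 11.5) and *Rlbp1* (47.9 ± 5.56) led. *Sparcl1* followed with 12.7 ± 3.24, *Hopx* with 7.61 ± 1.91, *Mfge8* with 6.03 ± 0.853, *Tnc* with 5.86 ± 0.991 and *Slc1a3* with 4.12 ± 0.439. *Gfap* had 2.98 ± 1.03 and *Slc1a2* 1.63 ± 0.0605. Ctrl libraries overlapped between *Hopx* and *Mfge8*, *Mfge8* and *Tnc*, and *Slc1a3* and *Gfap*.

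Translation efficiency (TE) was taken here as the mean RPKM of Ribo-seq divided by the mean FPKM of RNA-seq. It was lower in Ctrl for every membrane or secreted member than for any intracellular member. In Ctrl, TE of the 5 membrane or secreted members was between 0.18 ± 0.0383 (*Tnc*, SD propagated from both means) and 0.282 ± 0.0293 (*Slc1a2*), below the lower quartile of all genes (0.405, with a median of 0.886 over 13208 genes). TE of the intracellular members was 2.71 ± 0.353 for *Fabp7*, 2.66 ± 0.324 for *Aldoc*, 1.36 ± 0.158 for *Rlbp1*, 0.917 ± 0.432 for *Gfap* and 0.623 ± 0.157 for *Hopx*. The part of protein location, of fragment recovery or of untranslated sequence in this difference was not tested. By the study's account footprints mapped mainly to coding sequence, while RPKM divides by the length of the transcript.

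**Figure D2:**
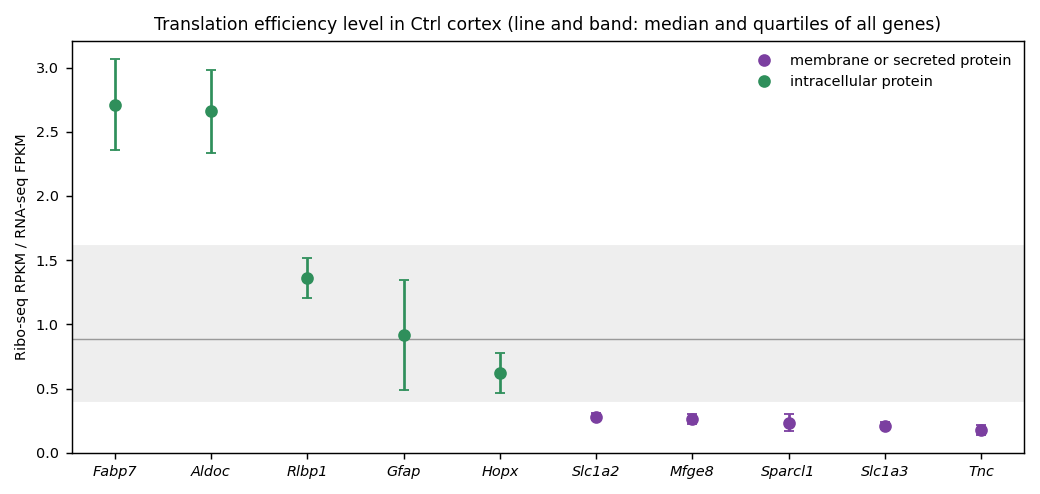
Translation efficiency level in Ctrl cortex (mean Ribo-seq RPKM over mean RNA-seq FPKM, n = 3 libraries per assay) for the 10 genes, with SD propagated from both means as bars. All 5 genes of membrane or secreted proteins lie between 0.18 and 0.282, below the band that spans the quartiles of all genes.

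In RNA-seq, 8 of 10 members were called lower in *M*-cKO than in Ctrl, 1 (*Slc1a2*) was called higher, and *Aldoc* did not pass the test (edgeR's quasi-likelihood test, adjusted *P* below 0.05 over 16968 genes). Over all genes tested 29.6% were called, 14.1% lower and 15.5% higher. The median log2 fold change was -0.91 over the members and -0.01 over all genes. All 8 lower members had every *M*-cKO library below every Ctrl library. Of all genes, 44.7% had groups that did not overlap, 21.4% with *M*-cKO below and 23.3% above. In whole cortex, fewer cells of a type and less RNA per cell cannot be told apart.

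In *F*-cKO RNA-seq, 7 members were called lower than in Ctrl and none higher. Over all genes tested in *F*-cKO, 21.1% were called, 9.57% lower and 11.5% higher. The median log2 fold change was -0.37 over the members and -0.01 over all genes. All 7 had every *F*-cKO library below every Ctrl library, and 41.7% of all genes had groups that did not overlap, 20.6% with *F*-cKO below and 21.1% above. *Rlbp1*, *Aldoc* and *Slc1a2* did not pass the test. Without *F*-cKO replicate 2, the library in which *Fto* was least reduced, 5 members and 1960 of 17353 genes were called, and without Ctrl replicate 3 also 5 members and 1543 of 17300 genes, compared with 3576 of 16944 genes with all libraries. The same 3 Ctrl libraries serve both comparisons, so the values of both knockouts are set side by side below, and their difference was tested between *M*-cKO and *F*-cKO directly. In that comparison 5 members (*Rlbp1*, *Tnc*, *Fabp7*, *Hopx*, *Aldoc*) were called lower in *M*-cKO and none higher, against 14.3% of all genes called lower, and 27.4% called in all. Without *M*-cKO replicate 3 the counts were 7 lower and 1 higher (*Slc1a2*), with 1645 lower and 1749 higher of 17237 genes, compared with 2403 and 2196 of 16802 with all libraries.

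**Figure D3:**
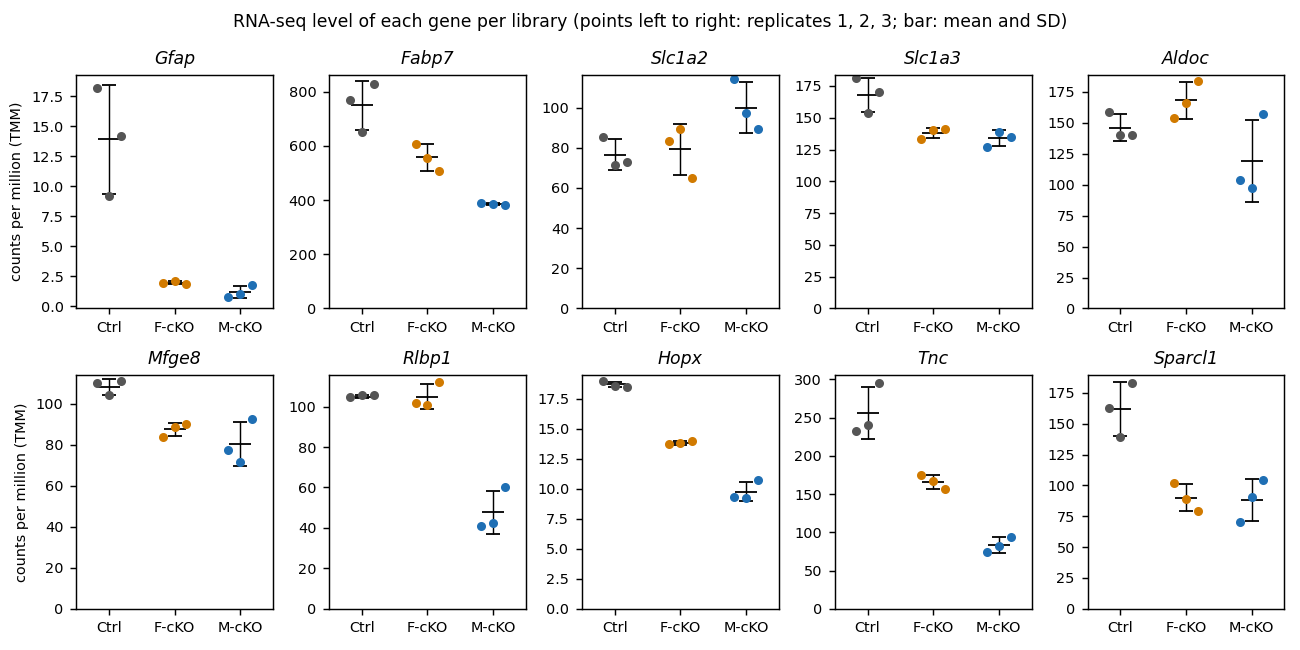
RNA-seq level of each of the 10 genes in CPM after TMM scaling (y axis) by group (x axis), with a point per library and the mean and SD of 3 libraries as bars. *Gfap* is at 9.18 to 18.2 in Ctrl and at most 2.12 in any knockout library, and *Slc1a2* is the member that lies above Ctrl in all 3 *M*-cKO libraries.

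*Gfap* had the largest fall of the members in both knockouts. RNA-seq gave 18.2, 9.18 and 14.2 CPM in Ctrl, 1.94, 2.12 and 1.86 in *F*-cKO, and 0.803, 1.05 and 1.77 in *M*-cKO. These rest on raw counts of 403, 194 and 263 in Ctrl, 40, 43 and 40 in *F*-cKO, and 18, 21 and 39 in *M*-cKO. All 6 knockout libraries lay below all Ctrl libraries. The log2 fold change was -2.81 ± 0.25 (SE) in *F*-cKO (7.02-fold lower, edgeR adjusted *P* = 0.00293) and -3.52 ± 0.31 in *M*-cKO (11.5-fold lower, adjusted *P* = 3.55e-05). Between *M*-cKO and *F*-cKO *Gfap* differed by -0.72 ± 0.31, which did not pass the test (adjusted *P* = 0.111), and without *M*-cKO replicate 3 it did (-1.10, adjusted *P* = 0.0346).

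In Ribo-seq, *Gfap* was low in all 3 *M*-cKO libraries but in only 2 of 3 *F*-cKO libraries. Ctrl had 14.4, 8.1 and 8.44 CPM, *M*-cKO 1.2, 1.29 and 2.54, and *F*-cKO 1.9, 2.31 and 13.0. The third *F*-cKO library held 437 *Gfap* fragments, compared with 38 and 25 in the others, while its *Fto* level (43.1 CPM, beside 40.4 and 25.6) was also below every Ctrl library. The log2 fold change was -2.63 ± 0.37 in *M*-cKO (adjusted *P* = 0.00964) and -0.82 ± 0.76 in *F*-cKO (adjusted *P* = 0.735). Without the third *F*-cKO library it was -2.25 ± 0.40, which did not pass the test either (adjusted *P* = 0.219).

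Because *Gfap* is known from the hippocampal side of the cortex and from other borders of the dissection, marker sums were set beside it. Summed CPM of 9 cortical hem and hippocampal primordium markers in RNA-seq was 243 to 262 in Ctrl, compared with 235 to 337 in *F*-cKO, and it was 249 to 258 in *M*-cKO. In Ribo-seq it was 194 to 226 in Ctrl and 157 to 211 in *M*-cKO over 8 markers, and 150, 206 and 220 in the *F*-cKO libraries. The members of that list that passed the RNA-seq test were higher, 4 of 9 in *F*-cKO (*Wnt3a*, *Wnt8b*, *Rspo1*, *Rspo3*) and 2 of 9 in *M*-cKO (*Wnt8b*, *Rspo1*), where 11.5% and 15.5% of all genes were called higher. Choroid plexus markers varied most, from 90.6 to 1001.5 summed CPM over the Ctrl RNA-seq libraries, which covers the range of 345 to 744 in the knockouts, and 1 of 6 (*Otx2*) was called higher in *M*-cKO. Their part in the *Gfap* values was not tested.

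*Fabp7*, the brain lipid-binding protein of radial glia, was lower in *M*-cKO in both assays. RNA-seq gave 768, 652 and 829 CPM in Ctrl, 608, 555 and 508 in *F*-cKO, and 390, 385 and 382 in *M*-cKO. The 3 groups did not overlap and were ordered Ctrl, *F*-cKO, *M*-cKO. The log2 fold change was -0.43 ± 0.09 in *F*-cKO (adjusted *P* = 0.0134) and -0.97 ± 0.08 in *M*-cKO (adjusted *P* = 2.56e-05), and *M*-cKO was below *F*-cKO by -0.55 ± 0.07 (adjusted *P* = 0.00063). Ribo-seq gave 1725.9, 1669.2 and 1539.4 CPM in Ctrl, 1424.2, 984 and 1703.9 in *F*-cKO, and 1010.9, 696 and 692 in *M*-cKO. The *F*-cKO libraries overlapped Ctrl (-0.26 ± 0.22, adjusted *P* = 0.734), and the *M*-cKO libraries lay below it (-1.07 ± 0.16, adjusted *P* = 0.0115). The RNA-seq call in *F*-cKO was lost without Ctrl replicate 3 (-0.35, adjusted *P* = 0.0523) or *F*-cKO replicate 2 (-0.42, adjusted *P* = 0.0503), and the Ribo-seq call in *M*-cKO without Ctrl replicate 2 (-1.05, adjusted *P* = 0.0594).

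*Rlbp1*, a retinaldehyde-binding protein of Müller and radial glia, had the largest RNA-seq difference of the members between the knockouts. In RNA-seq it had 105, 106 and 106 CPM in Ctrl, 102, 101 and 112 in *F*-cKO, and 40.8, 42.4 and 60.0 in *M*-cKO. *F*-cKO overlapped Ctrl (-0.01 ± 0.06, adjusted *P* = 0.941), and *M*-cKO was below both, by -1.15 ± 0.12 against Ctrl (adjusted *P* = 9.15e-05) and by -1.15 ± 0.13 against *F*-cKO (adjusted *P* = 0.000301). In Ribo-seq the values were 107, 108 and 132 in Ctrl, 114, 82.7 and 112 in *F*-cKO, and 49.9, 40.5 and 41.8 in *M*-cKO. The log2 fold change in *M*-cKO was -1.42 ± 0.12 (2.67-fold lower, adjusted *P* = 0.00269), close in size to that of its RNA.

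*Hopx*, a homeodomain protein that does not bind DNA and marks late and outer radial glia, was lower by steps. RNA-seq gave 19.0, 18.6 and 18.5 CPM in Ctrl, 13.7, 13.8 and 14 in *F*-cKO, and 9.32, 9.26 and 10.7 in *M*-cKO, with no overlap between the groups. The log2 fold change was -0.44 ± 0.09 in *F*-cKO (adjusted *P* = 0.0104) and -0.94 ± 0.11 in *M*-cKO (adjusted *P* = 0.00012), and the knockouts differed by -0.52 ± 0.12 (adjusted *P* = 0.00987). In Ribo-seq it had 7.95, 8.17 and 12.2 CPM in Ctrl, 5.5, 10.4 and 7.97 in *F*-cKO, and 2.89, 3.37 and 3.77 in *M*-cKO. The fall in *M*-cKO was 2.87-fold (-1.52 ± 0.23, adjusted *P* = 0.0117), while *F*-cKO overlapped Ctrl (-0.25 ± 0.32, adjusted *P* = 0.789).

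*Tnc*, an extracellular matrix glycoprotein of the radial glial niche, fell in RNA-seq of both knockouts and in Ribo-seq of *M*-cKO. RNA-seq gave 233, 240 and 295 CPM in Ctrl, 175, 167 and 157 in *F*-cKO, and 74.0, 82.2 and 94.0 in *M*-cKO. The groups did not overlap. *Tnc* was 1.54-fold lower in *F*-cKO (-0.62 ± 0.09, adjusted *P* = 0.00379) and 3.08-fold lower in *M*-cKO (-1.62 ± 0.11, adjusted *P* = 9.86e-06), and the knockouts differed by -1.01 ± 0.09 (adjusted *P* = 8.16e-05). Ribo-seq gave 31.4, 36.3 and 44.2 CPM in Ctrl and 17.7, 19.5 and 17.5 in *M*-cKO (-1.05 ± 0.15, adjusted *P* = 0.00926), a call lost without Ctrl replicate 2 (-1.07, adjusted *P* = 0.0518). The *F*-cKO Ribo-seq libraries had 25.6, 324 and 39.4 CPM. Their log2 fold change was 1.79 ± 0.94 with all 3 (adjusted *P* = 0.73) and -0.20 ± 0.23 without replicate 2 (adjusted *P* = 0.891).

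*Sparcl1*, a secreted matricellular protein that astrocytes use in synapse formation, fell in both knockouts. RNA-seq values were 139 to 183 CPM in Ctrl, 79.6 to 102 in *F*-cKO (-0.84 ± 0.11, adjusted *P* = 0.00308) and 70.2 to 104 in *M*-cKO (-0.88 ± 0.13, adjusted *P* = 0.000702). The libraries of both knockouts overlapped each other, and the knockouts differed by -0.05 ± 0.13 (adjusted *P* = 0.821). In Ribo-seq no difference passed the test: Ctrl had 25.1, 27.1 and 39.7 CPM, *M*-cKO 13.0, 21.4 and 30.9 (-0.52 ± 0.31, adjusted *P* = 0.28), and *F*-cKO 15.6, 178 and 39.0. The *F*-cKO log2 fold change was 1.34 ± 0.83 with all 3 libraries (adjusted *P* = 0.73) and -0.16 without replicate 2 (adjusted *P* = 0.943).

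*Mfge8*, a secreted protein that tags cells for phagocytosis, had lower RNA and higher Ribo-seq values in *M*-cKO. Its RNA-seq values were 110, 104 and 111 CPM in Ctrl, 83.9, 88.5 and 89.9 in *F*-cKO, and 77.4, 71.5 and 92.4 in *M*-cKO. Both knockouts lay below Ctrl, by -0.31 ± 0.06 (adjusted *P* = 0.00705) and -0.44 ± 0.09 (adjusted *P* = 0.00367), and the difference between them did not pass the test (-0.14 ± 0.09, adjusted *P* = 0.283) except without *M*-cKO replicate 3 (-0.24, adjusted *P* = 0.0378). In Ribo-seq, Ctrl had 26.9, 20.6 and 22.2 CPM and *M*-cKO 88.9, 67.2 and 81.1. Every *M*-cKO library was above every Ctrl library, 3.35-fold on the fitted scale (1.74 ± 0.15, adjusted *P* = 0.00257). The *F*-cKO libraries had 14.7, 125 and 22.7 CPM, with a log2 fold change of 1.22 ± 0.78 with all 3 (adjusted *P* = 0.73) and -0.31 ± 0.22 without replicate 2 (adjusted *P* = 0.875).

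The glutamate transporters differed from each other. *Slc1a2* (GLT-1), the main transporter of mature astrocytes, had 85.3, 71.5 and 73.1 CPM of RNA in Ctrl, 83.4, 89.1 and 65.0 in *F*-cKO, and 114, 97.5 and 89.4 in *M*-cKO. It was 1.3-fold higher in *M*-cKO (0.38 ± 0.09, adjusted *P* = 0.00992), and *F*-cKO overlapped Ctrl (0.05 ± 0.11, adjusted *P* = 0.812). *M*-cKO was above *F*-cKO by 0.33 ± 0.11, which did not pass the test (adjusted *P* = 0.0564). That difference did pass with DESeq2 (adjusted *P* = 0.0186), with all groups in one fit (0.0462), with the replicate block (0.0259), with no filter on low counts (0.000173), and without *F*-cKO replicate 2 (0.0489) or *M*-cKO replicate 3 (0.0457). Ribo-seq gave 16.8, 18 and 17.8 CPM in Ctrl and 21.9, 22.2 and 25.4 in *M*-cKO, a difference of 0.38 ± 0.11 that did not pass the test (adjusted *P* = 0.0571) except with DESeq2 (adjusted *P* = 0.0383). *Slc1a3* (GLAST), the transporter of radial glia, had 154 to 181 CPM of RNA in Ctrl, 133 to 141 in *F*-cKO (-0.29 ± 0.07, adjusted *P* = 0.0153) and 127 to 139 in *M*-cKO (-0.34 ± 0.07, adjusted *P* = 0.00406). The *Slc1a3* call in *F*-cKO was lost without Ctrl replicate 1 (-0.23, adjusted *P* = 0.0662), Ctrl replicate 3 (-0.28, adjusted *P* = 0.0503) or *F*-cKO replicate 2 (-0.29, adjusted *P* = 0.0518). In Ribo-seq *Slc1a3* had 25.9 to 32.2 CPM in Ctrl and 19.3 to 23.3 in *M*-cKO (-0.43 ± 0.13, adjusted *P* = 0.0584, with DESeq2 0.0377). In *F*-cKO Ribo-seq both transporters were far higher in replicate 2 than in the other libraries, at 12.2, 90.8 and 20.4 CPM for *Slc1a2* and 17.4, 190 and 28.4 for *Slc1a3*. Their log2 fold changes were 1.22 ± 0.71 and 1.44 ± 0.86 with all 3 libraries (adjusted *P* = 0.73 for both), and -0.10 and -0.33 without replicate 2 (adjusted *P* = 0.939 and 0.875).

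*Aldoc*, the brain isoform of the glycolytic enzyme aldolase, did not pass the RNA-seq test against Ctrl in either knockout. Its RNA-seq values were 159, 140 and 140 CPM in Ctrl, 154, 166 and 184 in *F*-cKO (0.20 ± 0.08, adjusted *P* = 0.0958), and 104, 97.5 and 157 in *M*-cKO (-0.30 ± 0.15, adjusted *P* = 0.157). The third *M*-cKO library lay with Ctrl, and without it the fall in *M*-cKO was -0.54 with an adjusted *P* of 0.000707. With no filter on low counts *Aldoc* was called in both knockouts, lower in *M*-cKO (adjusted *P* = 0.000894) and higher in *F*-cKO (adjusted *P* = 0.0394), and without *F*-cKO replicate 1 it was called higher in *F*-cKO (0.27, adjusted *P* = 0.0475). *M*-cKO was below *F*-cKO by -0.51 ± 0.16 (adjusted *P* = 0.0336). That call was lost without *F*-cKO replicate 2 or 3 or without *M*-cKO replicate 1 or 2, with an adjusted *P* of 0.0828 to 0.125, and with DESeq2 (adjusted *P* = 0.105). In Ribo-seq *Aldoc* had 350, 291 and 306 CPM in Ctrl and 197, 183 and 181 in *M*-cKO, with no overlap (1.71-fold lower, -0.78 ± 0.10, adjusted *P* = 0.00791). *F*-cKO, at 334, 260 and 341, overlapped Ctrl.

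**Figure D4:**
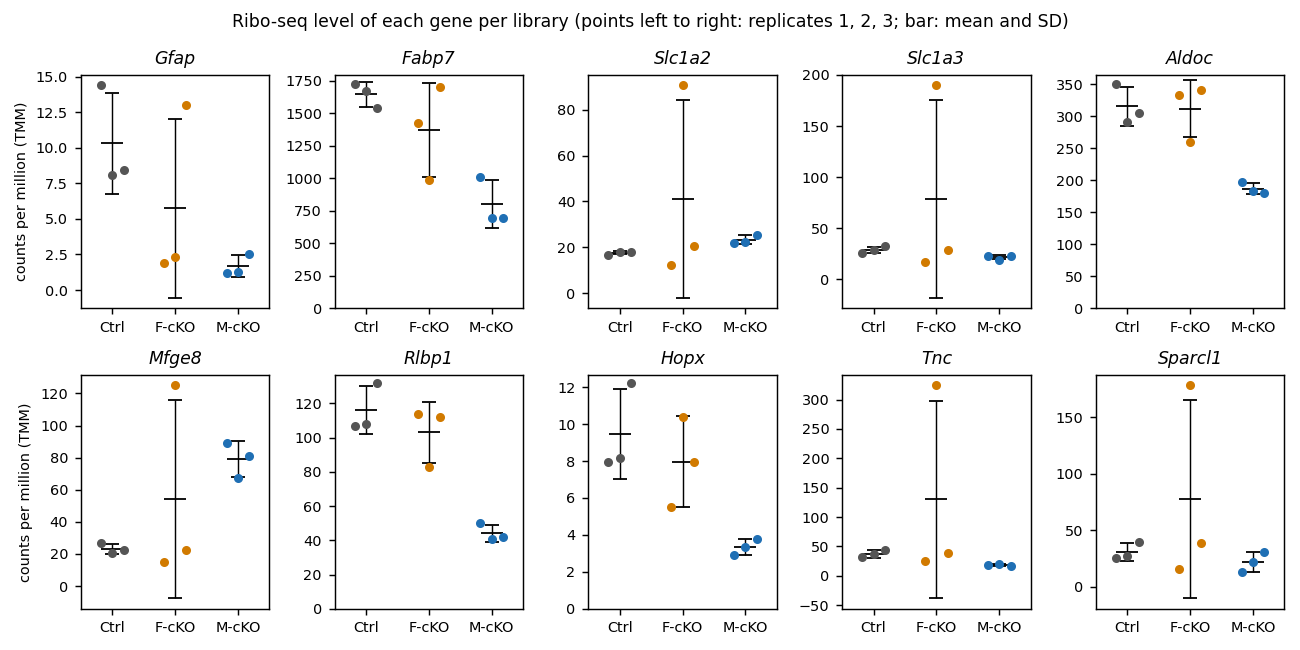
Ribo-seq level of each of the 10 genes in CPM after TMM scaling (y axis) by group (x axis), with a point per library and the mean and SD of 3 libraries as bars. *Mfge8* lies at 67.2 to 88.9 in *M*-cKO against 20.6 to 26.9 in Ctrl, and *F*-cKO replicate 2 stands above the other libraries for *Slc1a2*, *Slc1a3*, *Mfge8*, *Tnc* and *Sparcl1*.

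Counted over the members, Ribo-seq of *M*-cKO called 6 of 10 lower (*Gfap*, *Hopx*, *Rlbp1*, *Fabp7*, *Tnc*, *Aldoc*) and 1 higher (*Mfge8*), against 14.6% of 14314 genes called, 7.5% lower and 7.13% higher. The median log2 fold change was -0.92 over the members and 0 over all genes. Groups did not overlap for 9 members, 7 lower and 2 higher, and for 39% of all genes, 19% lower and 19.9% higher. When all 9 Ribo-seq libraries shared a single fit, *Rlbp1* alone was called and 35 genes were called in all, at fold changes of similar size (-2.61 for *Gfap*, -1.50 for *Hopx*, 1.77 for *Mfge8*). The same fit without *F*-cKO replicate 2 called the same 7 members and 1261 genes. Without Ctrl replicate 2, 5 members were called, *Fabp7* and *Tnc* no longer passing, while calls over all genes fell to 177.

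Ribo-seq of *F*-cKO called 0 of 10 members, and 0 of 14335 genes. At an unadjusted *P* below 0.05 it gave 0 members and 318 genes (2.22%), and DESeq2 called 0 members and 6 genes. The libraries of all 10 members overlapped Ctrl, and those of 7.86% of all genes did not. Ribo-seq of *M*-cKO against *F*-cKO called 0 members and 0 of 14262 genes by edgeR, with 5 members and 1154 genes (8.09%) at an unadjusted *P* below 0.05. DESeq2 called 3 members lower in *M*-cKO (*Aldoc*, *Rlbp1*, *Tnc*) among 206 genes. The *Tnc* difference was -2.83 ± 0.96 by edgeR and -2.84 by DESeq2 (adjusted *P* = 0.0494) with all libraries, and -0.83 ± 0.22 by edgeR without *F*-cKO replicate 2 (adjusted *P* = 0.281).

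**Figure D5:**
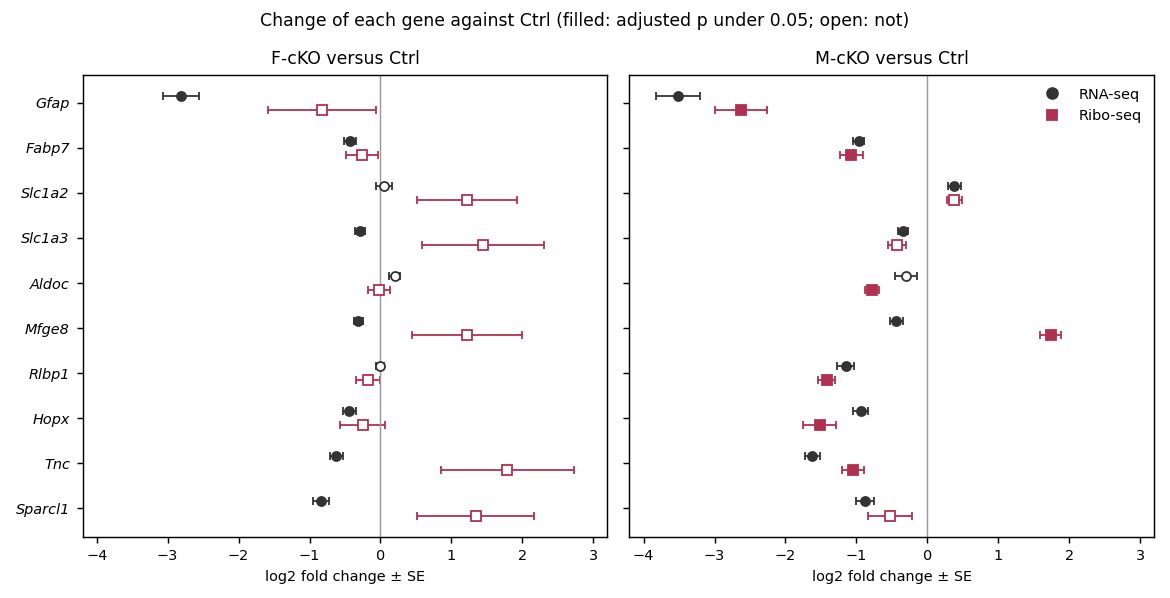
Log2 fold change against Ctrl with SE (x axis) of each of the 10 genes (y axis) in RNA-seq (circles) and Ribo-seq (squares), with *F*-cKO on the left and *M*-cKO on the right, and filled symbols for an adjusted *P* below 0.05. In *M*-cKO the 2 assays point the same way for every gene except *Mfge8* (-0.44 and 1.74), and in *F*-cKO no Ribo-seq symbol is filled.

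Differential TE, the interaction of assay and genotype, was called for 1 member. *Mfge8* TE was higher in *M*-cKO than in Ctrl by 2.25 ± 0.18 on the log2 scale (4.75-fold, adjusted *P* = 2.39e-05), against 3.07% of 13208 genes called, 1.89% higher and 1.18% lower. As a level, its TE was 0.264 ± 0.0383 in Ctrl and 1.19 ± 0.257 in *M*-cKO, so it left the low range that the other 4 membrane or secreted members kept in *M*-cKO (0.196 to 0.296). *Tnc* (0.64 ± 0.19, adjusted *P* = 0.0764) and *Gfap* (0.97 ± 0.53, adjusted *P* = 0.304) had positive values that did not pass, and the other 7 members lay between -0.51 and 0.44. *Tnc* did pass with a replicate block (0.65, adjusted *P* = 0.0326, and 0.033 with the block within each genotype), with DESeq2 (0.61, adjusted *P* = 0.0325) and without Ribo-seq Ctrl replicate 3 (0.77, adjusted *P* = 0.0319). When all 18 libraries shared a single fit, the *Mfge8* value was the same size (2.25) with an adjusted *P* of 0.307, and the same fit without the second *F*-cKO Ribo-seq library gave 2.25 with an adjusted *P* of 2.04e-05. For *F*-cKO against Ctrl, TE called 0 members and 0 of 13225 genes, with 3 members (*Gfap*, *Tnc*, *Sparcl1*) and 1228 genes (9.29%) at an unadjusted *P* below 0.05, and DESeq2 called 0 members and 44 genes. With all libraries and without the second *F*-cKO Ribo-seq library, the TE difference was 1.99 and 2.38 for *Gfap*, 2.40 and 0.43 for *Tnc*, and 2.16 and 0.70 for *Sparcl1*, with no adjusted *P* below 0.211. Without the third *F*-cKO Ribo-seq library, in which *Gfap* was at the Ctrl level, the *Gfap* value was 0.45. For *M*-cKO against *F*-cKO, TE called 0 members and 0 of 13162 genes, with 0 members and 541 genes (4.11%) at an unadjusted *P* below 0.05 and 0 members and 18 genes by DESeq2. Without the second *F*-cKO Ribo-seq library, *Mfge8* was called in that comparison (2.25, adjusted *P* = 0.00225).

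Other astroglial genes, from a wider list of 28 that holds none of the members, were more often called lower than higher in RNA-seq. This list and those below were written with earlier results of these libraries in view. They are therefore no independent evidence of a direction. In *F*-cKO, 15 of 27 tested were called lower and 1 higher, against 9.57% and 11.5% of all genes, with a median log2 fold change of -0.42. *Gjb6* (connexin 30) was at 1.72, 5.54 and 2.65 CPM in Ctrl and 0.923, 0.0984 and 0.929 in *F*-cKO (-2.33 ± 0.60, adjusted *P* = 0.0237). Its levels were low throughout. Among Ctrl and *F*-cKO RNA-seq libraries, summed CPM of meningeal markers was likewise highest in Ctrl replicate 2 (186) and lowest in *F*-cKO replicate 2 (25.8). The part of meninges in the *Gjb6* values was not tested. *Aqp4*, the water channel of astrocyte endfeet, was at 3.84, 1.85 and 3.36 in Ctrl and 1.41, 0.836 and 1.44 in *F*-cKO (-1.29 ± 0.33, adjusted *P* = 0.0233). The growth factor receptor *Fgfr3* was the gene called higher (0.60 ± 0.14, adjusted *P* = 0.0165).

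In *M*-cKO, 13 of 27 of these genes were called lower and 1 higher in RNA-seq, against 14.1% and 15.5% of all genes, with a median of -0.34. The thyroid hormone transporter *Slco1c1* fell from 39.1, 36.7 and 57.7 CPM to 10.7, 14.3 and 15.4 (-1.73 ± 0.18, adjusted *P* = 8.03e-05), and *Aqp4* fell by 1.25 on the log2 scale (adjusted *P* = 0.0114). Glutamine synthetase (*Glul*) was called higher (0.30 ± 0.06, adjusted *P* = 0.00403). In Ribo-seq of *M*-cKO, 5 of 25 were called lower and 0 higher, against 7.5% and 7.13% of all genes, among them *Slco1c1* (-2.46 ± 0.22, adjusted *P* = 0.00334) and the metallothionein *Mt3* (-1.47 ± 0.16, adjusted *P* = 0.00501).

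Of 12 core radial glia genes, 9 were called higher and 0 lower in *F*-cKO RNA-seq (median 0.49), where 11.5% of all genes were called higher. In *M*-cKO, 6 were called higher, 0 lower and 6 did not pass in RNA-seq (median 0.28), against 15.5% of all genes called higher, and 2 were called higher and 0 lower in Ribo-seq (median 0.23), against 7.13%. *Nr2e1*, a nuclear receptor that maintains neural stem cells, was at 37.1, 35.7 and 24.5 CPM in Ctrl, 56.3, 63.8 and 67.3 in *F*-cKO (0.94 ± 0.14, adjusted *P* = 0.00409) and 63.1, 61.7 and 61.8 in *M*-cKO (0.93 ± 0.13, adjusted *P* = 0.000366). The stem cell factor *Sox2* was higher in *M*-cKO in RNA-seq (0.90 ± 0.08, adjusted *P* = 3.19e-05) and in Ribo-seq (1.12 ± 0.15, adjusted *P* = 0.00817). The receptor *Notch1* was higher in *F*-cKO RNA-seq (0.91 ± 0.11, adjusted *P* = 0.00293) and in *M*-cKO Ribo-seq (0.70 ± 0.14, adjusted *P* = 0.0208). It was among the genes called higher in *M*-cKO RNA-seq as well.

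Of 11 late or outer radial glia genes outside the members tested in RNA-seq, 2 were called in *F*-cKO, both higher (*Sfrp1* and *Ddah1*), where 21.1% of all genes were called. In *M*-cKO 3 were called, 2 lower (*Ptprz1*, *Gpm6b*) and 1 higher (*Il6st*), where 29.6% of all genes were called. *Ptprz1*, a receptor phosphatase of radial glia that binds tenascins, had 471, 431 and 516 CPM in Ctrl and 266, 277 and 239 in *M*-cKO (-0.87 ± 0.08, adjusted *P* = 4.09e-05). In Ribo-seq of *M*-cKO 1 of 10 was called, against 14.6% of all genes, namely *Ddah1*, which was lower (-0.43 ± 0.10, adjusted *P* = 0.0291).

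Regulators of gliogenesis moved in both directions. Of 12 genes, 5 were called higher (*Nfia*, *Nfib*, *Sox9*, *Hey1*, *Rbpj*) and 4 lower (*Id1*, *Id3*, *Olig1*, *Olig2*) in *F*-cKO RNA-seq, against 11.5% and 9.57% of all genes. In *M*-cKO RNA-seq, 4 were called higher (*Sox9*, *Id3*, *Hey1*, *Rbpj*) and 1 lower (*Olig1*), against 15.5% and 14.1% of all genes. *Sox9*, which drives glial fate, rose from 51.1, 47.5 and 40.7 CPM in Ctrl to 86.0, 81.4 and 91.1 in *M*-cKO (0.88 ± 0.09, adjusted *P* = 5.73e-05), and by 0.88 ± 0.15 in Ribo-seq (adjusted *P* = 0.0163). The Notch target *Hey1* rose from 26.4, 22.0 and 19.1 CPM to 42.7, 48.7 and 51.6 in *M*-cKO (1.07 ± 0.12, adjusted *P* = 0.000104). *Olig1* and *Olig2* also stand in the oligodendrocyte lineage list, of which 5 of 6 genes were called lower in *F*-cKO RNA-seq and 1 in *M*-cKO. No gene of these 4 lists was called in *F*-cKO Ribo-seq, where 0 of 14335 genes were called in all.

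Markers of neighbouring tissue were counted in the same way, beside 11.5% of all genes called higher and 9.57% lower in *F*-cKO RNA-seq, 15.5% and 14.1% in *M*-cKO RNA-seq, and 7.13% and 7.5% in *M*-cKO Ribo-seq. All 10 ganglionic eminence markers were called higher in *M*-cKO RNA-seq (median log2 fold change 1.08), with a summed CPM of 433, 428 and 433 in Ctrl, 552, 456 and 404 in *F*-cKO, and 805, 738 and 592 in *M*-cKO. In *F*-cKO 5 of 10 were called higher, and in *M*-cKO Ribo-seq 6 of 10. Of 7 meningeal markers, 3 were called lower in *F*-cKO RNA-seq, and their summed CPM was 93.9, 186 and 102 in Ctrl, 63.3, 25.8 and 78.5 in *F*-cKO, and 53.5, 190 and 259 in *M*-cKO. Endothelial markers had 145 to 194 summed CPM over the 9 RNA-seq libraries, with 2 of 8 called lower in *F*-cKO (*Cldn5*, *Esam*) and 0 of 8 in *M*-cKO. No microglial marker was called in either knockout by RNA-seq or Ribo-seq, with summed RNA-seq CPM of 57.9 to 68.4 in Ctrl, against 44.2 to 58.9 (*F*-cKO) and 51.3 to 78.8 (*M*-cKO). Of 7 erythroid markers, embryonic globin *Hbb-y* was called higher in both knockouts by RNA-seq, and *Hbb-bs* was called lower in *F*-cKO. Of 11 cortical neuron markers, 3 were called higher and 3 lower in *F*-cKO RNA-seq, and 4 and 4 in *M*-cKO. Of 7 thalamic and hypothalamic markers, 3 were tested in *F*-cKO and 4 in *M*-cKO by RNA-seq, and *Lhx9* was called higher in both. The part of these tissues in the values of the members was not tested.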

How the data were processed

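Groups were read from the genotype label of each RNA-seq and Ribo-seq library, and the labels number the replicates 1 to 3 and call them biological repeats. For RNA-seq, paired-end reads of 150 bp were aligned by the authors with HISAT2 2.0.5, who deposited counts per gene, and the counting tool is not given in the sources used here. For Ribo-seq, cortical lysates with cycloheximide were digested with RNase I, and the authors mapped the protected fragments with TopHat2 and deposited HTSeq counts per gene. The deposited FPKM (RNA-seq) and RPKM (Ribo-seq) values, which the authors scaled by gene length and depth, were taken unchanged for levels. The submitters' processing notes name mm10 and DESeq2 1.14.1, and no column of the authors' own comparisons was used. Of 54838 genes with Ribo-seq counts, 40490 are blank in some libraries and were left out, which leaves 14348.

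Counts were fitted in R 4.3.3 with edgeR 4.0.16: filterByExpr (minimum count 10, minimum total 15), TMM scaling and the quasi-likelihood test over the 6 libraries of a comparison. For differential TE, an assay by genotype interaction was fitted over 12 libraries. RiboDiff, which the study used, was not run. Benjamini-Hochberg adjustment ran over all genes tested, and a gene was called at an adjusted *P* below 0.05. CPM are after TMM scaling over all 9 libraries of an assay. TE levels carry no test. Positions and promoters came from RefSeq tables of GRCm38.p6. Symbols came from a separate list keyed by Ensembl identifier, in which 54723 of the 55153 RNA-seq genes had a symbol. The scripts were tested on simulated data.

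The members, the gene lists and the tests were chosen with earlier results of these data known. Genes outside the members are named where they were among the top 2 per direction by fold change of a list in a comparison with Ctrl, called and with libraries that do not overlap Ctrl. Others are named only as members of a count. Alternatives were RLE scaling, no filter on low counts, DESeq2 1.42.0, all groups in a single fit, a replicate block, each library left out, and pseudocounts of 0.1 and 1 for TE levels. The ratio of the authors' FPKM or RPKM means, for TE a block for the replicate number within each genotype, and a fit of all groups without Ribo-seq *F*-cKO replicate 2, were added after seeing the data.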

Additional observations from a re-analysis of the deposited data

Results flagged for a closer look

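The change of *Mfge8* in *M*-cKO differed between the assays. Its RNA was lower than Ctrl (log2 fold change -0.44 ± 0.09) and its ribosome-protected fragments were higher (1.74 ± 0.15), in 3 of 3 libraries each, and the test of the difference itself, the interaction of assay and genotype, gave 2.25 ± 0.18 (edgeR adjusted *P* = 2.39e-05). The value lay between 2.16 and 2.38 when each of the 12 libraries was left out in turn, and it was called each time. With all 18 libraries in one fit it was 2.25 and not called (adjusted *P* = 0.307), and the Ribo-seq rise was not called either with all 9 Ribo-seq libraries (1.77, adjusted *P* = 0.236). Without Ribo-seq *F*-cKO replicate 2 those fits called both (adjusted *P* = 2.04e-05 and 0.00435). With 3 libraries a group, no group was tested for a single outlying value.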

How the results depend on the processing

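None of 29 called member values changed sign over 357 alternative values, and 10 of the 29 lost the call under at least 1 alternative, in 19 alternative values in all. Counts of members called changed as follows. With no filter on low counts, the count went from 7 to 8 in RNA-seq *F*-cKO versus Ctrl, from 9 to 10 in *M*-cKO versus Ctrl, and from 5 to 6 in *M*-cKO versus *F*-cKO, while calls over all genes went from 3576 of 16944 to 4430 of 30597, from 5024 of 16968 to 5530 of 30551, and from 4599 of 16802 to 5272 of 30412. With all groups in one fit, the count of members went from 5 to 6 in RNA-seq *M*-cKO versus *F*-cKO, from 7 to 1 in Ribo-seq *M*-cKO versus Ctrl, from 0 to 1 between the knockouts in Ribo-seq, and from 1 to 0 for TE against Ctrl in *M*-cKO. DESeq2 called 9 members in Ribo-seq *M*-cKO versus Ctrl (*Slc1a2* and *Slc1a3* added) and 3129 of 14314 genes there, compared with 2093 by edgeR. It called 3 members and 206 genes between the knockouts in Ribo-seq, and 2 members and 1037 genes in the TE comparison of *M*-cKO with Ctrl (*Mfge8*, *Tnc*). Leaving out each library in turn gave 5 to 8 members in RNA-seq *F*-cKO versus Ctrl, 9 to 10 in *M*-cKO versus Ctrl, 4 to 8 in *M*-cKO versus *F*-cKO (8 without *M*-cKO replicate 3), 5 to 7 in Ribo-seq *M*-cKO versus Ctrl, 1 to 2 for TE in *M*-cKO versus Ctrl (2 without Ribo-seq Ctrl replicate 3) and 0 to 1 for TE in *M*-cKO versus *F*-cKO (1 without Ribo-seq *F*-cKO replicate 2). Calls over all genes in the same fits were 1543 to 3474, 3546 to 4657, 2767 to 4566, 177 to 2547, 65 to 1054 and 0 to 5, in that order.

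Values that were never called changed sign as follows. *Rlbp1* in *F*-cKO RNA-seq was 0.0042 with all groups in one fit, 0.0022 as the ratio of the authors' FPKM means, and -0.0587 to 0.0241 with libraries left out. With libraries left out, the ranges were -0.044 to 0.17 for *Slc1a2* in *F*-cKO RNA-seq and -0.17 to 0.11 for *Sparcl1* between the knockouts in RNA-seq. In Ribo-seq *F*-cKO versus Ctrl they were -0.07 to 0.10 for *Aldoc*, -0.10 to 1.66 for *Slc1a2*, -0.33 to 1.93 for *Slc1a3*, -0.31 to 1.67 for *Mfge8*, -0.20 to 2.31 for *Tnc* and -0.16 to 1.82 for *Sparcl1*. For *Slc1a2* in Ribo-seq *M*-cKO versus *F*-cKO the range was -1.26 to 0.51. A pseudocount of 1 moved the Ctrl TE level of *Slc1a2* to 0.388 and of *Slc1a3* to 0.25.

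The replicate numbers of different genotypes were not taken as pairs, since in no comparison did all 3 same-numbered pairs correlate above 0.1. Their deviations correlated between -0.216 and 0.216 in RNA-seq and between -0.319 and 0.16 in Ribo-seq. Of 6 libraries, 5 correlated best with their own number in Ribo-seq *M*-cKO versus *F*-cKO, 4 in Ribo-seq *M*-cKO versus Ctrl, and 0 to 3 in the other comparisons, a hint of pairing in Ribo-seq that comes from the data and not from the design. Between the assays, same-numbered libraries of a genotype correlated by 0.138 to 0.309 in Ctrl, 0.093 to 0.325 in *M*-cKO and -0.319 to -0.02 in *F*-cKO. With the replicate block within each genotype, which the RNA-seq and Ribo-seq libraries of a number share, *Mfge8* TE in *M*-cKO versus Ctrl was 2.26 (adjusted *P* = 2.01e-05), *Tnc* was also called (0.65, adjusted *P* = 0.033), which made 2 members, and the other TE comparisons called 0 members. With the replicate block, 2 members (*Mfge8*, *Tnc*) were called for TE in *M*-cKO versus Ctrl, 6 in RNA-seq *M*-cKO versus *F*-cKO, and as many as without it in the other 7 comparisons. Calls over all genes went from 3576 to 2130 in RNA-seq *F*-cKO and from 2093 to 1319 in Ribo-seq *M*-cKO. All groups in one fit without Ribo-seq *F*-cKO replicate 2 gave 7 members in Ribo-seq *M*-cKO versus Ctrl and 1 for TE. The cause of the other shifts was not tested.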
